A study of Homo sapiens with 32 samples.

Results

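Protein disulfide isomerases and the ERO1 oxidases put disulfide bonds into proteins that enter the endoplasmic reticulum (ER). A disulfide isomerase carries thioredoxin-fold domains whose cysteine pairs hand a disulfide to a client protein or reshuffle a wrong one, and the flavoenzymes ERO1A and ERO1B reoxidise the isomerases with molecular oxygen. Many genes of this system are known targets of the unfolded protein response, the signalling from the ER through ATF6, IRE1 with XBP1, and PERK with ATF4 that follows when folding is disturbed. The 10 genes described here were chosen by symbol: the isomerases P4HB, PDIA3, PDIA4, PDIA5, PDIA6 and TXNDC5, the ER retention partner ERP44, the ER stress-inducible protein CRELD2, and the oxidases ERO1A and ERO1B. All 10 were found among the 15105 named genes of the count tables, and all 10 passed the filters on low counts for total and for labelled reads.

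The libraries came from HCT116, an established human colorectal carcinoma cell line, made to express the plant auxin receptor OsTIR1 under doxycycline. They were SLAM-seq libraries of 3′ ends: cells take up 4-thiouridine (s4U), and RNA made during the feeding shows T-to-C conversions in its reads, here called labelled reads. The 8 groups of 4 libraries were tagged cells with tunicamycin and auxin, tagged cells with tunicamycin and vehicle, tagged cells with auxin, tagged cells with vehicle, and the same treatments of parental cells. Tagged cells carried the degron mAID on both endogenous copies of IGF2BP3, an RNA-binding protein that auxin then sends to the proteasome through OsTIR1. Parental cells carried OsTIR1 without the tag and so show what auxin does by itself. Tunicamycin, which blocks N-linked glycosylation and so disturbs ER folding, was given at 5 µg/mL for 5 h, and cells that received it are called stressed. Auxin was given at 500 µM for 9 h. The controls of both agents received DMSO. Doxycycline (200 ng/mL, 24 h) and s4U (250 µM, 2 h) were given to all 32 wells, controls included. Each library was 1 well of a plate, so p-values measure the spread between wells. Loss of the IGF2BP3 protein was not measured in these libraries, and its transcript is no check of a degron.

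Reads in named genes came to 0.987 to 6.98 megareads per library. Labelled reads were 8.88% to 13.5% of them, and with no s4U-free library the share of labelled reads that comes from sequencing errors was not measured. In parental cells with tunicamycin and auxin, replicate 1 stood apart. It was the smallest library, with 0.987 megareads, its reads covered 15.1 T positions on average against a median of 22.5 over the libraries, and its 10 most abundant genes took 9.97% of the reads. The 10 genes described here took 0.138% of its reads, the lowest value of all libraries, although it was labelled as stressed. Results that rest on it are given with and without it. The edgeR fits take a shared estimate of the spread from all libraries, and leaving this library out also changed calls between groups that do not hold it. Of 7 epithelial markers, 6 exceeded 1 CPM in a library, VIL1 did not, and the summed level was 1713 to 2538 CPM. Of 5 fibroblast markers, 1 exceeded 1 CPM and the sum was 18.3 to 47.6 CPM. DCN stayed under 1 CPM, and COL1A2, COL3A1 and LUM were at 0. Of 4 leukocyte markers, 1 exceeded 1 CPM and the sum was 2.41 to 11.1 CPM. LYZ stayed under 1 CPM, and PTPRC and CD3E were at 0.

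Together the 10 genes took a larger share of the reads in stressed than in unstressed cells. The means were 0.284% ± 0.00742 in stressed and 0.183% ± 0.00547 in unstressed auxin-treated tagged cells, and 0.266% ± 0.00413 in stressed and 0.164% ± 0.00438 in unstressed vehicle-treated tagged cells (SD, n = 4 each). In parental cells they were 0.254% ± 0.0778 stressed and 0.179% ± 0.00115 unstressed with auxin, and 0.291% ± 0.0137 stressed and 0.164% ± 0.00670 unstressed with vehicle. The group with the large SD holds the smallest library. Below, CPM are counts per megaread on library sizes scaled by the trimmed mean of M-values, labelled CPM are the same for labelled reads alone, and the labelled share is the percentage of a gene's own reads that were labelled.

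**Figure D1:**
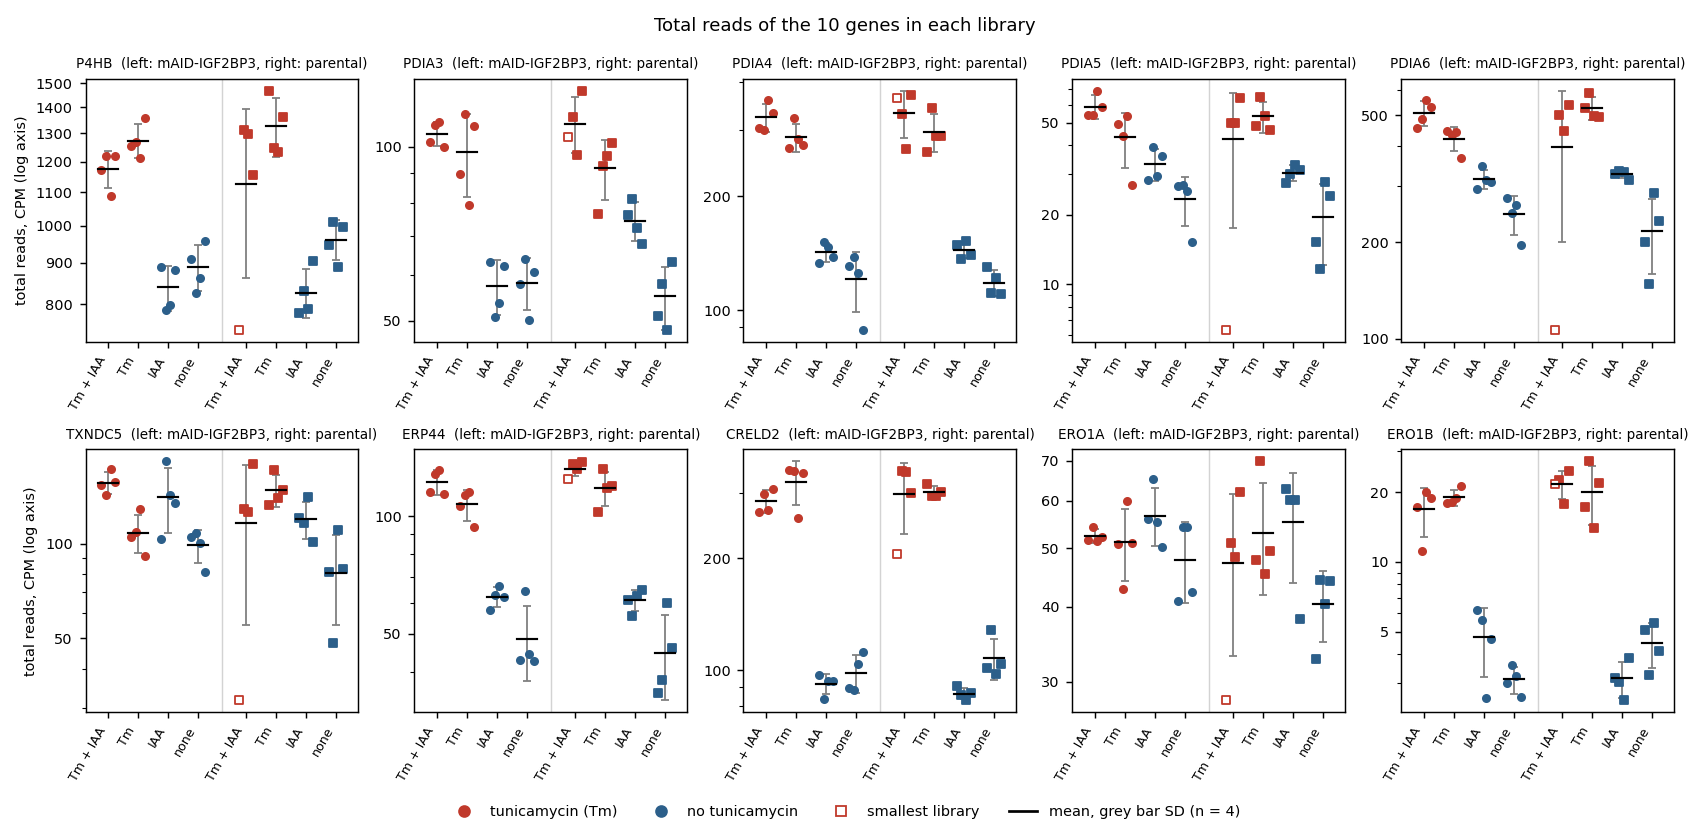
Total reads of each of the 10 genes in each of the 32 libraries, in CPM on a log axis, with the mean (black line) and SD (grey bar) of the 4 libraries of a group. Red points are tunicamycin-treated (Tm) and blue points are not, IAA is auxin, and the open square is the smallest library. CRELD2, PDIA4 and ERO1B separate by tunicamycin in every pair of groups, ERO1A does not, and the open square lies far below its group for PDIA5, PDIA6 and TXNDC5.

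The tunicamycin comparisons ask how this gene group responds to disturbed ER folding, in total and in newly made RNA. In total reads, 6 of the 10 genes (P4HB, PDIA3, PDIA4, ERP44, ERO1B and CRELD2) were higher in stressed than in unstressed cells in all 4 comparisons, PDIA5, PDIA6 and TXNDC5 in vehicle-treated parental cells, and ERO1A in none. In all, 6 of the 10 rose in auxin-treated tagged cells, 6 in vehicle-treated tagged cells, 6 in auxin-treated parental cells and 9 in vehicle-treated parental cells, and none fell. Of all 11186 genes tested, 3.01%, 2.93%, 7.26% and 7.65% were higher in those comparisons in that order (edgeR's quasi-likelihood test, Benjamini-Hochberg adjusted p below 0.05). A further 1.14%, 1.11%, 3.19% and 5.26% were lower, which makes 4.16%, 4.04%, 10.5% and 12.9% in either direction. The median log2 fold change of the 10 genes was 0.85, 0.84, 0.58 and 1.30, where the median over all genes tested was between -0.01 and -0.00. Without the smallest library 8, 8, 8 and 10 of the 10 were higher, and 5.05%, 5.08%, 5.57% and 15.8% of the 11258 genes then tested.

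P4HB, the most studied disulfide isomerase and also the β subunit of collagen prolyl 4-hydroxylase, showed a small and even increase. Its total level was 1255, 1270, 1211 and 1358 CPM in stressed vehicle-treated tagged cells, against 909, 825, 863 and 959 CPM in unstressed ones. In vehicle-treated parental cells it was 1467, 1246, 1232 and 1361 CPM stressed, against 947, 1011, 891 and 997 CPM unstressed. The groups did not overlap in either line. The log2 fold changes were 0.48 ± 0.12 in auxin-treated tagged, 0.52 ± 0.12 in vehicle-treated tagged, 0.45 ± 0.12 in auxin-treated parental and 0.46 ± 0.12 in vehicle-treated parental cells, with edgeR adjusted p of 0.0099, 0.0052, 0.012 and 0.0080. With the smallest library, at 744 CPM, the stressed and unstressed auxin-treated parental cells overlapped; without it the log2 fold change there was 0.60 (edgeR adjusted p = 2.3e-07).

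PDIA3 forms disulfides in glycoproteins held by calnexin and calreticulin. Its level averaged 105 ± 5.10 CPM in stressed and 57.4 ± 6.21 CPM in unstressed auxin-treated tagged cells, and 97.9 ± 16.1 CPM in stressed and 58.1 ± 5.90 CPM in unstressed vehicle-treated tagged cells (SD, n = 4 each). In parental cells the means were 110 ± 12.1 CPM stressed and 74.4 ± 5.76 CPM unstressed with auxin, and 91.8 ± 10.8 CPM stressed and 55.0 ± 6.80 CPM unstressed with vehicle. All 4 stressed groups lay above their unstressed groups, by log2 fold changes of 0.57 to 0.88 (edgeR adjusted p from 7.4e-06 to 0.0024). A processed pseudogene of PDIA3 is nearly identical to it. The deposited counts hold 0 multimapping reads, and what became of reads that fit both is not given in the sources used here.

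PDIA4, an isomerase with additional thioredoxin-fold domains, rose in all 4 comparisons. It measured 304, 299, 360 and 331 CPM in stressed auxin-treated tagged cells, against 133, 151, 147 and 138 CPM in unstressed ones. In auxin-treated parental cells it was 363, 331, 267 and 370 CPM stressed, against 148, 137, 152 and 140 CPM unstressed. Every stressed library was above every unstressed library of its pair, including the smallest library with 363 CPM. The log2 fold changes in auxin-treated tagged, vehicle-treated tagged, auxin-treated parental and vehicle-treated parental cells were 1.19, 1.25, 1.2 and 1.32, each ± 0.12 (edgeR adjusted p at most 2.5e-08).

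PDIA5 and PDIA6 are isomerases too, and PDIA6 is also known to bind and restrain the stress sensor IRE1. For PDIA6, stressed vehicle-treated parental cells had 525, 587, 495 and 493 CPM, against 200, 149, 285 and 233 CPM in unstressed ones. Stressed auxin-treated parental cells had 107, 500, 447 and 538 CPM, against 326, 336, 332 and 313 CPM in unstressed ones. The value of 107 CPM is that of the smallest library and lies below every unstressed value, and the other 3 lie above. PDIA5 had 6.35, 49.8, 49.9 and 64.0 CPM in those stressed auxin-treated parental cells, against 27.4, 30.2, 32.9 and 31.3 CPM in unstressed ones, the same arrangement.

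With all libraries, both genes were called in vehicle-treated parental cells only. PDIA5 had a log2 fold change of 1.42 ± 0.29 there (edgeR adjusted p = 0.0012) and PDIA6 of 1.28 ± 0.25 (edgeR adjusted p = 0.00062). In the other 3 comparisons the log2 fold changes were 0.60 to 0.89 for PDIA5 (edgeR adjusted p 0.098 to 0.18) and 0.30 to 0.79 for PDIA6 (edgeR adjusted p 0.070 to 0.44). Without the smallest library both passed in all 4. PDIA6 then had log2 fold changes of 0.68 in auxin-treated tagged, 0.79 in vehicle-treated tagged and 0.60 in auxin-treated parental cells, with edgeR adjusted p of 8.3e-05, 8.9e-06 and 0.0011, and PDIA5 had 0.82, 0.90 and 0.85, with edgeR adjusted p of 0.0047, 0.0037 and 0.0060. The difference between the stress effect with auxin and with vehicle in parental cells was -0.97 ± 0.34 for PDIA6 and did not pass (edgeR adjusted p = 0.095).

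TXNDC5, an isomerase with several thioredoxin domains, had the smallest log2 fold change of the 6 isomerases in total reads in 3 of the 4 comparisons, but not in vehicle-treated parental cells. It measured 105, 109, 128 and 91.4 CPM in stressed vehicle-treated tagged cells, against 105, 108, 101 and 81.3 CPM in unstressed ones, and these overlap. In vehicle-treated parental cells it measured 132, 171, 139 and 148 CPM stressed, against 81.4, 48.1, 111 and 83.1 CPM unstressed, without overlap. The parental pair gave a log2 fold change of 0.87 ± 0.25 (edgeR adjusted p = 0.023), but the call was lost without replicate 2 of the stressed cells or without replicate 1 or 2 of the unstressed cells. Elsewhere the log2 fold change was 0.02 to 0.15 (edgeR adjusted p 0.92 to 0.98), and without the smallest library it was 0.14 to 0.27 and still not called.

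ERP44 holds ERO1 oxidases and other proteins without a retention signal of their own in the early secretory pathway. Its level was 115, 128, 131 and 114 CPM in stressed auxin-treated tagged cells, against 57.4, 62.7, 66.2 and 62.1 CPM in unstressed ones. In auxin-treated parental cells it was 124, 136, 132 and 137 CPM stressed, against 61.1, 55.6, 62.6 and 64.7 CPM unstressed. About the same separation was seen with vehicle, and the groups of no pair overlapped. Stress effects ran from 0.98 ± 0.13 in auxin-treated tagged cells to 1.39 ± 0.13 in vehicle-treated parental cells, all called (edgeR adjusted p at most 4.5e-06).

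CRELD2, a secreted and ER-resident protein with EGF-like repeats that is used as a marker of ER stress, gave a large and tight response. Stressed vehicle-treated parental cells had 317, 294, 295 and 302 CPM, against 101, 128, 98.1 and 104 CPM in unstressed ones. Stressed vehicle-treated tagged cells had 346, 344, 257 and 339 CPM, against 89.8, 88.5, 104 and 112 CPM in unstressed ones. No stressed library came near an unstressed one; the smallest library had 206 CPM, against at most 90.5 CPM in its unstressed group. The log2 fold changes were 1.64, 1.70, 1.79 and 1.48 in auxin-treated tagged, vehicle-treated tagged, auxin-treated parental and vehicle-treated parental cells, each ± 0.13 (edgeR adjusted p at most 4.1e-10).

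The oxidases parted from each other. ERO1B, known in other cells as the stress-inducible form and abundant in secretory tissues, was low in unstressed cells and higher in every stressed group. It measured 17.9, 18.1, 18.8 and 21.2 CPM in stressed vehicle-treated tagged cells, against 3.00, 3.59, 3.23 and 2.62 CPM in unstressed ones. In vehicle-treated parental cells it measured 17.2, 27.1, 14.1 and 21.98 CPM stressed, against 5.08, 3.27, 5.43 and 4.13 CPM unstressed. Over all groups these levels rest on 17 to 152 reads per stressed library and 8 to 23 per unstressed library. On the log2 scale the changes were 1.82 ± 0.24 in auxin-treated tagged, 2.61 ± 0.26 in vehicle-treated tagged, 2.77 ± 0.25 in auxin-treated parental and 2.16 ± 0.23 in vehicle-treated parental cells (edgeR adjusted p at most 1.9e-06), the largest of the 10 genes in each comparison.

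ERO1A, the widely expressed oxidase, known as a target of hypoxia signalling and of the stress factor CHOP, was not called in any comparison of total reads. It measured 51.6, 54.4, 51.4 and 52.3 CPM in stressed auxin-treated tagged cells, against 56.0, 65.4, 55.2 and 50.3 CPM in unstressed ones. In vehicle-treated parental cells it measured 47.9, 69.8, 45.4 and 49.5 CPM stressed, against 32.7, 44.3, 40.4 and 44.2 CPM unstressed. The tagged pair overlaps, and in the parental pair the lowest stressed value, 45.4 CPM, is close to the highest unstressed one, 44.3 CPM. The log2 fold changes were -0.12 (95% interval -0.45 to 0.22), 0.10 (-0.25 to 0.44), -0.17 (-0.51 to 0.18) and 0.39 (0.06 to 0.73) in auxin-treated tagged, vehicle-treated tagged, auxin-treated parental and vehicle-treated parental cells, with edgeR adjusted p of 0.90, 0.96, 0.57 and 0.12. Without the smallest library the fourth was 0.40 and passed (edgeR adjusted p = 0.033). That library is in neither group of this comparison, so the call depends on it only through the fit that all libraries share.

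Within a library, the log2 ratio of ERO1B to ERO1A reads was -1.67 ± 0.42 in stressed and -3.64 ± 0.54 in unstressed auxin-treated tagged cells, and -1.42 ± 0.21 in stressed and -3.94 ± 0.13 in unstressed vehicle-treated tagged cells (SD, n = 4 each). In parental cells it was -1.08 ± 0.49 stressed and -4.12 ± 0.56 unstressed with auxin, and -1.43 ± 0.22 stressed and -3.19 ± 0.49 unstressed with vehicle. The highest unstressed value was -2.69 and the lowest stressed value -2.29, so the 16 stressed and 16 unstressed libraries did not overlap. The counted regions differ between the genes, so the change of this ratio can be read but not the ratio of the RNAs.

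Promoter sequence was compared for the 9 of the 10 genes that the RefSeq table of the GRCh38.p14 assembly (hg38) held, over 250 bases before to 50 bases after the start, on both strands. The ER stress response element, at which NF-Y sits on CCAAT and ATF6 or XBP1 on CCACG, was searched as CCAAT, any 9 bases and CCACG. It was present in 2 of the 9, CRELD2 and ERO1B, and in 0.0806% of all 27305 promoters of that length (0.152% of the 9237 of genes tested here). The 3 other motifs searched were in 0 of the 9: ATTGG, any base and CCACG, which shares CCACG with the first (0.0549% of all promoters), TGACG followed by TGG (0.795%), and TGATG, any base and AA (3.67%). The windows around the matches are printed for CRELD2 and ERO1B because the element was found there, with the match in capitals. It lies on the opposite strand to the gene in both. The same positions as in ERO1B follow for ERO1A, where they hold no match. A match describes letters, not binding, and no binding was measured. The windows lie at chr22:49918542-49918584 on the plus strand for CRELD2 (bases -92 to -50), at chr1:236282171-236282208 on the minus strand for ERO1B (-250 to -213) and at chr14:52695771-52695808 on the minus strand for ERO1A.
CRELD2: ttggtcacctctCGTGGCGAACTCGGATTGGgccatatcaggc
ERO1B: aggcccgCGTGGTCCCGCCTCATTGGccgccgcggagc
ERO1A: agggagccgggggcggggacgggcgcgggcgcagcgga

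Newly made RNA showed larger fold changes. In labelled reads, 9 of the 10 genes were higher in stressed cells in all 4 comparisons, the exception being ERO1A in each, and none was lower. Of all 8980 genes tested, 6.94%, 6.88%, 7.91% and 10.1% were higher in auxin-treated tagged, vehicle-treated tagged, auxin-treated parental and vehicle-treated parental cells, 2.84%, 2.49%, 3.45% and 7.08% were lower, and 9.78%, 9.38%, 11.4% and 17.2% passed in either direction. The median log2 fold change of the 10 genes was 2.23, 2.45, 1.98 and 2.38, against medians between -0.04 and -0.02 over all genes tested. Leaving out the smallest library left 9 of 10 higher in each, where 8.11%, 7.97%, 8.42% and 11.9% of the 9177 genes then tested were higher. Since the labelled reads of a gene are part of its total reads, total and labelled counts are not independent readouts.

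**Figure D2:**
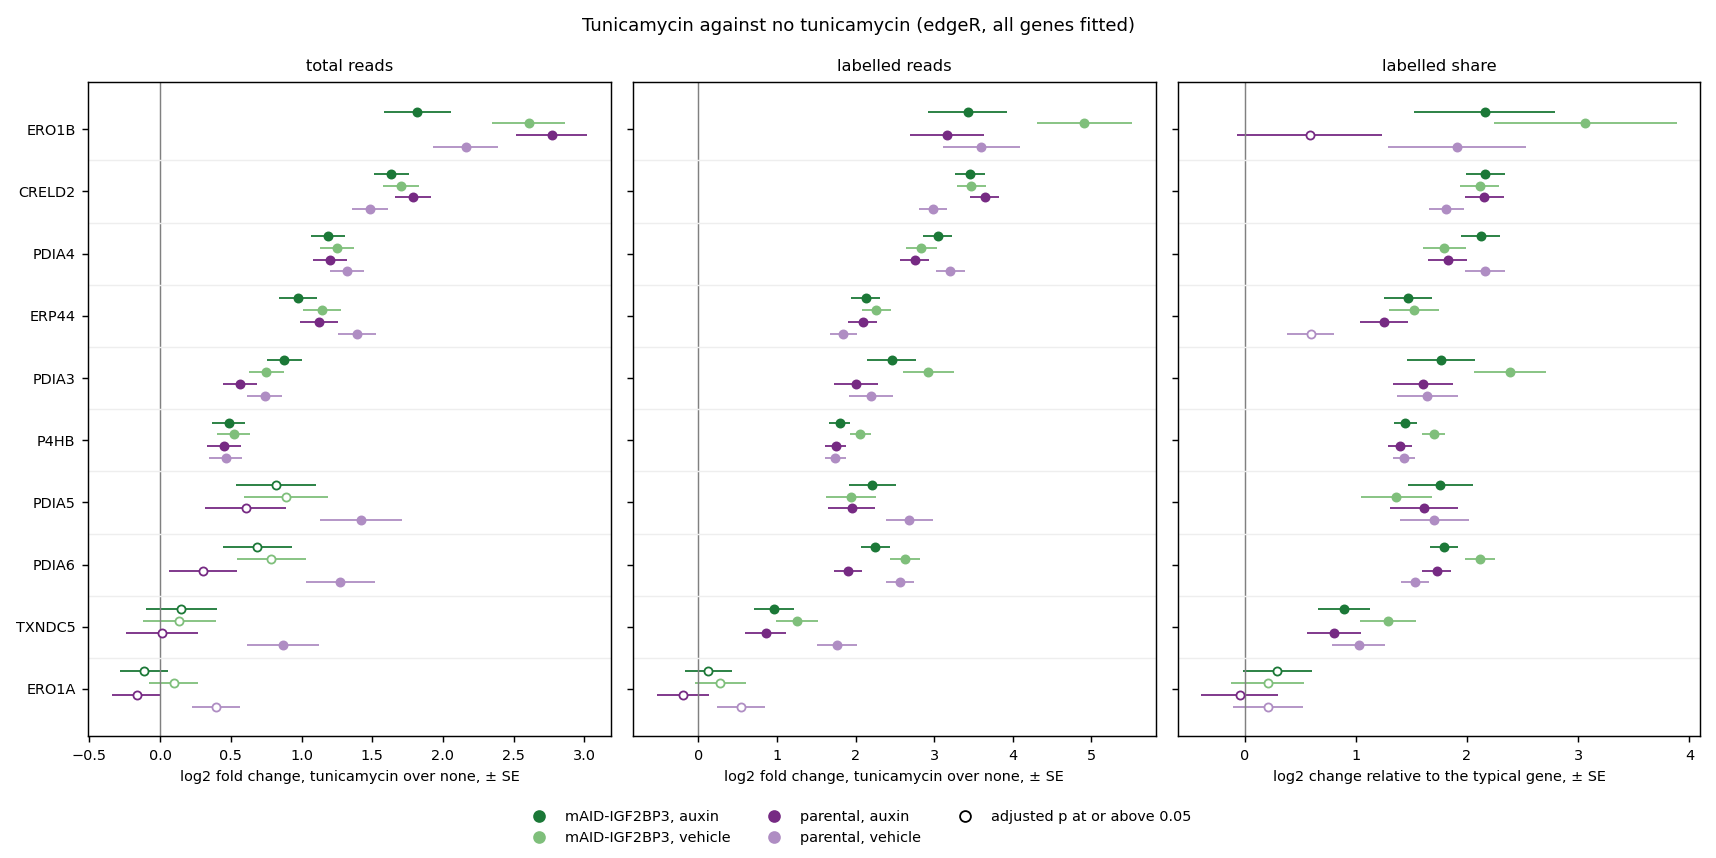
Log2 fold changes of stressed over unstressed cells with their SE for the 10 genes in total reads, labelled reads and labelled share, each point from 4 against 4 libraries (edgeR fit of all genes). Filled points passed an adjusted p of 0.05. In labelled reads ERO1B, CRELD2 and PDIA4 lie between 2.75 and 4.91, and no point of ERO1A is filled.

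PDIA4 and CRELD2 showed large gains of labelled RNA with small errors. Labelled PDIA4 averaged 590 ± 54.3 labelled CPM in stressed and 71.8 ± 6.77 in unstressed auxin-treated tagged cells, and 491 ± 54.7 in stressed and 52.8 ± 6.01 in unstressed vehicle-treated parental cells (SD, n = 4 each). Those are log2 fold changes of 3.04 ± 0.18 and 3.20 ± 0.19 (edgeR adjusted p = 1.6e-23 and 2.0e-24). Labelled CRELD2 averaged 703 ± 79.7 labelled CPM in stressed and 62.9 ± 17.0 in unstressed vehicle-treated tagged cells, a log2 fold change of 3.47 ± 0.19 (edgeR adjusted p = 2.9e-26). Over the 4 comparisons CRELD2 ran from 2.99 to 3.64 and PDIA4 from 2.75 to 3.20.

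Of the other isomerases, PDIA6 averaged 783 ± 106 labelled CPM in stressed and 127 ± 11.2 in unstressed vehicle-treated tagged cells, with log2 fold changes of 1.90 to 2.63 over the 4 comparisons. PDIA5 ranged from 1.94 to 2.68, PDIA3 from 2.00 to 2.92 and P4HB from 1.74 to 2.06. TXNDC5 had the smallest change of the isomerases in labelled reads in all comparisons but vehicle-treated parental cells, and was called in all 4: 0.96 ± 0.25, 1.25 ± 0.27, 0.86 ± 0.26 and 1.76 ± 0.25 in auxin-treated tagged, vehicle-treated tagged, auxin-treated parental and vehicle-treated parental cells (edgeR adjusted p from 7.3e-08 to 0.018). ERP44, the retention partner, ran from 1.84 to 2.27. ERO1B ran from 3.16 to 4.91, with wide errors of 0.47 to 0.61, and unstressed libraries held 0 to 7 labelled reads of it. ERO1A had 0.13 (95% interval -0.47 to 0.72), 0.28 (-0.35 to 0.91), -0.20 (-0.85 to 0.46) and 0.54 (-0.06 to 1.14), none of which passed.

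The labelled share asks whether newly made RNA grew relative to the older RNA of the same gene. P4HB, with 586 to 9412 reads per library, measured it best. Its labelled share was 12.97%, 13.4%, 9.98% and 11.8% in stressed vehicle-treated tagged cells, against 5.25%, 4.71%, 5.70% and 3.72% in unstressed ones. In vehicle-treated parental cells it was 10.7%, 11.6%, 9.35% and 11.1% stressed, against 5.81%, 4.67%, 5.76% and 4.95% unstressed. The groups do not overlap, and in none of the 4 comparisons did they. At the same time the labelled percentage of all reads in named genes was lower in stressed cells, 11.9% ± 0.467 stressed and 12.6% ± 0.748 unstressed in vehicle-treated tagged cells, and 11.8% ± 0.739 stressed and 12.9% ± 0.520 unstressed in vehicle-treated parental cells. The conversion rate over all covered T positions was lower as well, 0.887% ± 0.0501 stressed and 1.13% ± 0.0825 unstressed in vehicle-treated tagged cells, and 0.806% ± 0.0424 stressed and 1.13% ± 0.0698 unstressed in vehicle-treated parental cells. Changes in share were therefore fitted relative to the typical gene.

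**Figure D3:**
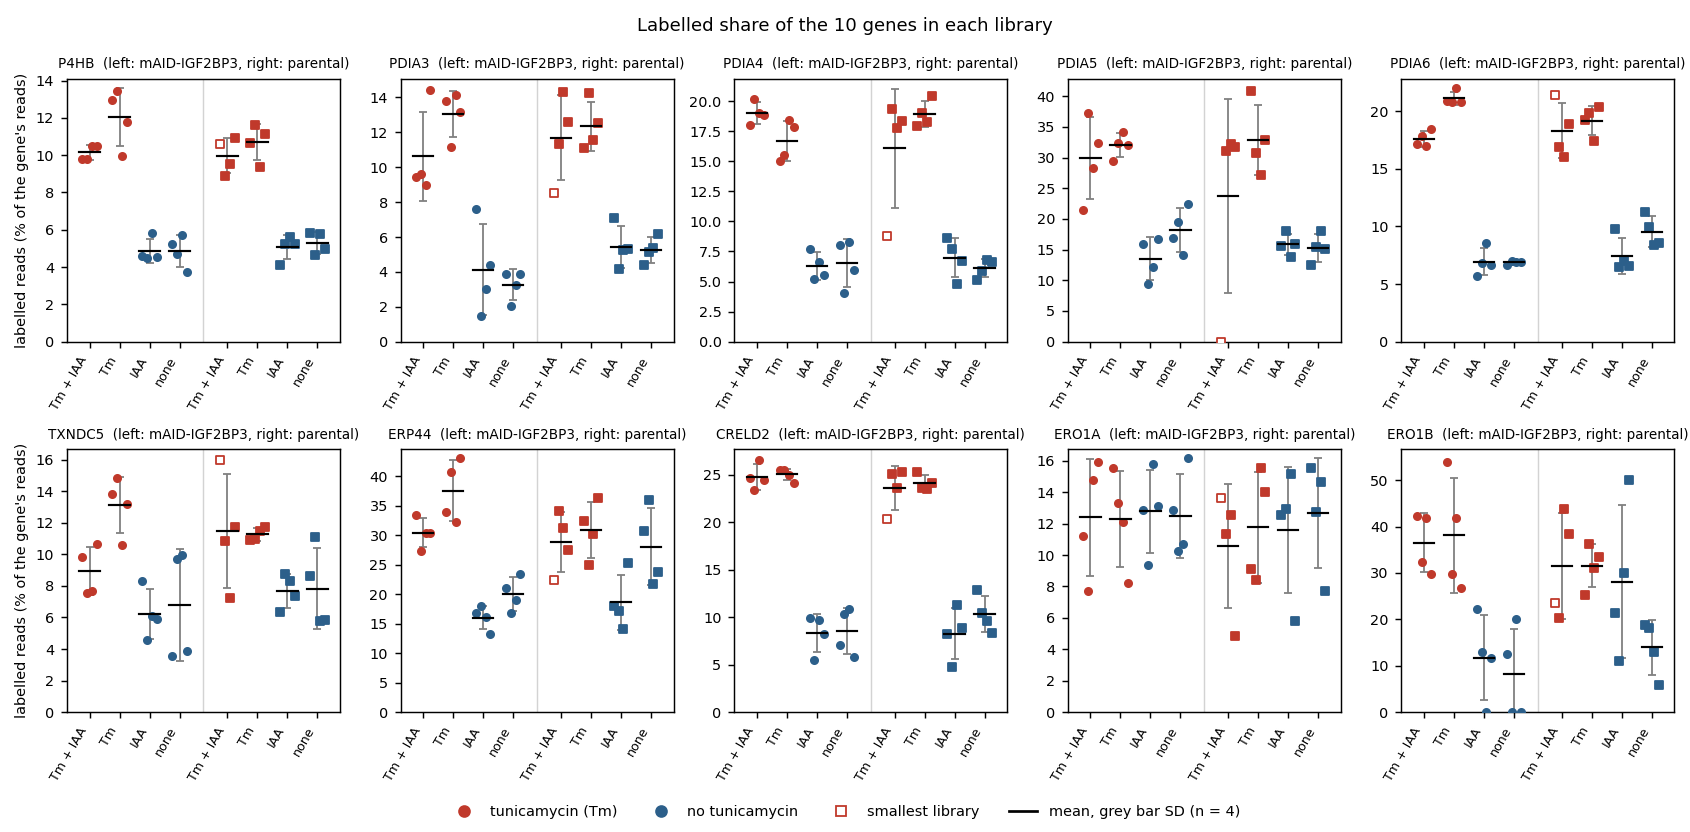
Labelled share, the percentage of a gene's reads that carried T-to-C conversions, of the 10 genes in each of the 32 libraries, with the mean (black line) and SD (grey bar) of 4 libraries. Red points are tunicamycin-treated (Tm), blue points are not, and the open square is the smallest library, in which PDIA5 had 5 reads and none labelled. P4HB, PDIA6 and CRELD2 separate by tunicamycin in every pair, and the groups of ERO1A overlap in all.

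By that fit, 9 of the 10 genes had a higher labelled share in stressed cells in auxin-treated tagged, 9 in vehicle-treated tagged, 8 in auxin-treated parental and 8 in vehicle-treated parental cells, and none a lower one. Of all genes tested, 5.07%, 5.06%, 5.37% and 4.81% were higher, 2.05%, 2.02%, 2.68% and 3.36% were lower, and 7.12%, 7.07%, 8.05% and 8.17% passed in either direction. A limma fit of log2 ratios in place of edgeR gave 8, 9, 6 and 6 genes. PDIA6 had a share of 21.1% ± 0.581 in stressed and 6.89% ± 0.135 in unstressed vehicle-treated tagged cells (SD, n = 4 each), a relative log2 change of 2.12 ± 0.14 (edgeR adjusted p = 8.5e-26). CRELD2 had 25.0% ± 0.623 in stressed and 8.55% ± 2.45 in unstressed cells of that pair, a relative log2 change of 2.11 ± 0.17 (edgeR adjusted p = 4.9e-19). These genes, with PDIA3, PDIA4, P4HB and PDIA5, passed in all 4 comparisons.

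PDIA4 had a labelled share of 19.01% ± 0.899 in stressed and 6.27% ± 1.14 in unstressed auxin-treated tagged cells. In stressed auxin-treated parental cells it was 8.74%, 19.4%, 17.8% and 18.4%, against 8.64%, 7.69%, 4.83% and 6.72% in unstressed ones; the 8.74% is the smallest library. PDIA5 had a labelled share of 31.99% ± 1.95 in stressed and 18.2% ± 3.56 in unstressed vehicle-treated tagged cells. In the smallest library 0 of its 5 reads were labelled. By the limit of 3 counts, which is too wide for so few reads, counting error alone allows a share of up to 60%. The other 3 libraries of that group had 31.1% to 32.2%. In auxin-treated parental cells PDIA5 passed in 6 of 39 alternative fits of the share. Most of these were limma fits that left out 1 library, so they are not separate checks.

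For ERP44, stress and share did not go together in every pair. In vehicle-treated parental cells its labelled share was 32.4%, 24.9%, 30.1% and 36.2% stressed, against 30.6%, 35.9%, 21.7% and 23.8% unstressed. These overlap, and the relative log2 change of 0.59 ± 0.21 did not pass (edgeR adjusted p = 0.066). In vehicle-treated tagged cells it was 33.98%, 40.8%, 32.3% and 43.0% stressed, against 21.1%, 16.8%, 18.98% and 23.5% unstressed, a relative log2 change of 1.52 ± 0.23 (edgeR adjusted p = 1.1e-07). The difference between tagged and parental cells was 0.93 ± 0.31 and did not pass (edgeR adjusted p = 0.71).

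TXNDC5 had a labelled share of 13.1% ± 1.80 in stressed and 6.78% ± 3.53 in unstressed vehicle-treated tagged cells, with relative log2 changes of 0.81 to 1.29 over the 4 comparisons, all called by edgeR. Without the smallest library, by limma, it passed in vehicle-treated tagged cells alone among the 4, but there both the method and the libraries differ. Its unstressed libraries there split into 3.57% and 3.87% against 9.70% and 9.97%, and stressed libraries lay above all of them. ERO1B passed in 3 comparisons, although its call in vehicle-treated parental cells held in 4 of 39 alternative fits of the share, most of them by limma. It did not pass in auxin-treated parental cells, where its share was 23.5%, 20.3%, 43.8% and 38.4% stressed, against 21.4%, 11.1%, 30.0% and 50.0% unstressed. Those unstressed values rest on 9 to 14 reads each. ERO1A, with 103 to 391 reads per vehicle-treated library, had 12.3% ± 3.07 in stressed and 12.5% ± 2.69 in unstressed vehicle-treated tagged cells and 11.8% ± 3.53 in stressed and 12.6% ± 3.50 in unstressed vehicle-treated parental cells. Its relative log2 changes were -0.04 to 0.29, with edgeR adjusted p of 0.67 to 0.97.

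Without overlap, all 4 stressed libraries lay above all 4 unstressed ones in total CPM for 8 of the 10 genes in auxin-treated tagged, 8 in vehicle-treated tagged, 5 in auxin-treated parental and 10 in vehicle-treated parental cells. Over all genes tested this held for 8.21%, 6.81%, 5.67% and 12%. In labelled share it held for 8, 9, 5 and 7 of the 10, and for 2.82%, 3.03%, 2.07% and 2.63% of all genes.

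The tagged and parental lines were compared to see what the degron tag does before and during stress. In total reads, labelled reads and labelled share, none of the 10 genes passed in any of the 4 line comparisons, in which 0.241% to 0.429% of the 11186 genes passed in total reads. Of the 8980 genes, 0.0111% to 0.1% passed in labelled reads and 0.0111% to 0.0445% in labelled share. Without the smallest library 0 of the 10 passed in total or labelled reads. Of all genes then tested, 0.48% to 3.43% passed in total reads and 0.0763% to 0.686% in labelled reads. With all libraries and an unadjusted p under 0.05, 2 of the 10 differed in total reads in unstressed auxin-treated cells, where 8.52% of all genes did. In the 3 other pairs 0 did, where 7.06% to 19.6% of all genes did. DESeq2 called 0 of the 10 in all. The 2 were PDIA3, with -0.37 ± 0.12 in unstressed auxin-treated cells (edgeR adjusted p = 0.27), and ERO1B, with 0.60 ± 0.28 in the same cells (edgeR adjusted p = 0.55). No gene of the 10 passed for a difference in the stress effect between tagged and parental cells either. Of all genes tested, 0% passed for that difference in total reads, labelled reads and labelled share, with vehicle and with auxin. With vehicle that difference was 0.22 (95% interval -0.12 to 0.56) for CRELD2, -0.07 (-0.40 to 0.25) for PDIA4 and 0.05 (-0.27 to 0.38) for P4HB. For ERO1B it was 0.44 (-0.25 to 1.14) with vehicle and -0.95 (-1.64 to -0.26) with auxin, the value with auxin having an edgeR adjusted p of 0.89.

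Auxin itself was followed in both lines, since parental cells have no tagged protein to lose. In total reads, 0 of the 10 genes passed in stressed and 0 in unstressed tagged cells, 0 in stressed parental cells and 2 in unstressed parental cells, where 0.0179%, 0.679%, 0.0179% and 7.16% of all genes did, the last made of 4.83% higher and 2.33% lower. Those 2 were PDIA3, which measured 76.2, 81.3, 72.2 and 67.8 CPM with auxin, against 50.8, 57.9, 48.2 and 63.2 CPM with vehicle, and ERP44, with 61.1, 55.6, 62.6 and 64.7 CPM with auxin, against 35.3, 38.0, 59.8 and 45.9 CPM with vehicle. The PDIA3 groups do not overlap and the ERP44 groups do. The log2 fold changes were 0.43 ± 0.12 and 0.44 ± 0.14 (edgeR adjusted p = 0.033 and 0.044), and both calls were lost without replicate 1 or 2 of the vehicle-treated cells or replicate 1, 2 or 3 of the auxin-treated cells.

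Without the smallest library, 9 of the 10 genes passed in unstressed parental cells, ERO1B excepted, and 2800 genes in all (24.9% of those tested, 13.7% higher and 11.2% lower). Of the 9, ERO1A, ERP44, PDIA3, PDIA4, PDIA5, PDIA6 and TXNDC5 were higher with auxin, by 0.30 to 0.61, and P4HB and CRELD2 lower, by -0.21 and -0.31. In unstressed tagged cells ERP44, PDIA6 and TXNDC5 then passed, at 0.36, 0.37 and 0.52, and 1794 genes in all (15.9%, with 7.76% higher and 8.17% lower). The reads of auxin-treated unstressed libraries covered more T positions than those of vehicle-treated ones, 23.2 ± 0.658 with auxin and 21.8 ± 0.190 with vehicle in tagged cells, and 22.9 ± 0.360 with auxin and 21.3 ± 1.02 with vehicle in parental cells (SD, n = 4 each). The part of this in the auxin differences was not tested.

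**Figure D4:**
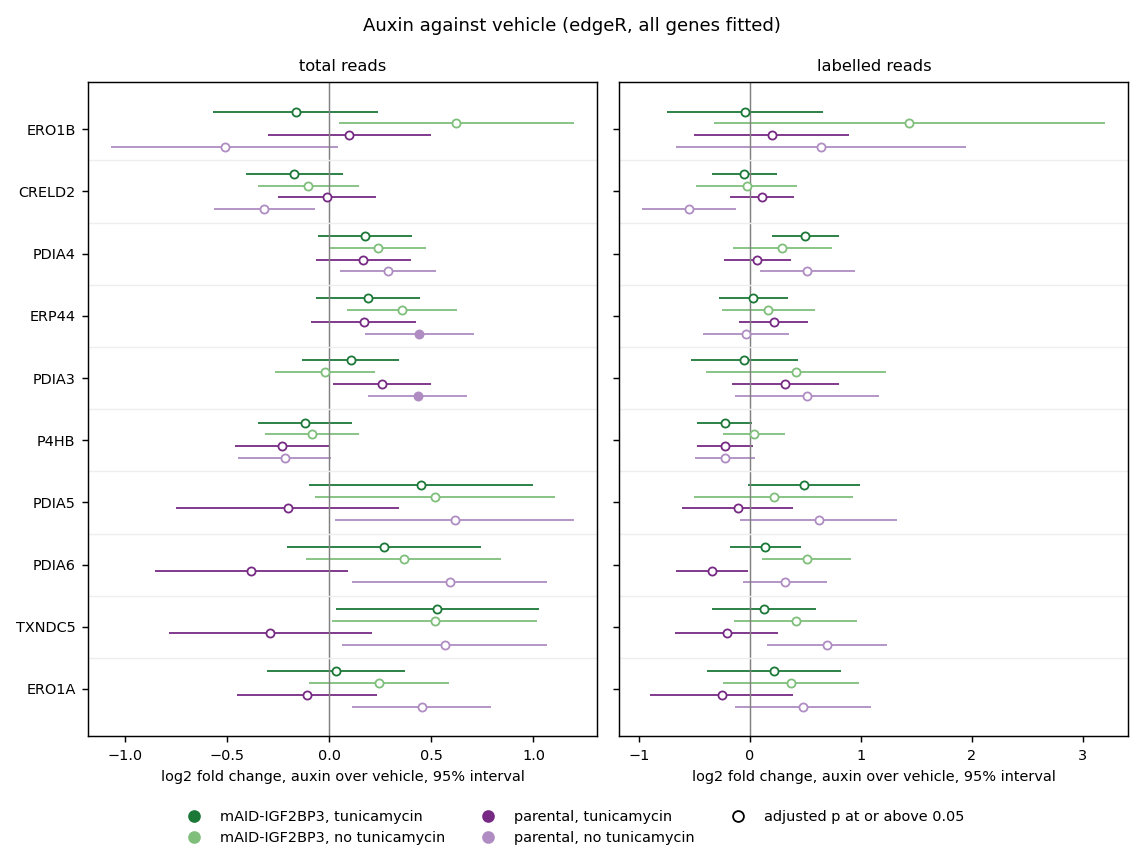
Log2 fold changes of auxin over vehicle with their 95% intervals for the 10 genes in total reads and labelled reads, in tagged and parental cells with and without tunicamycin, each from 4 against 4 libraries (edgeR fit of all genes). The 2 filled points, ERP44 and PDIA3 in unstressed parental cells, are those that passed an adjusted p of 0.05, and most intervals of both lines overlap.

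The effect of auxin that needs the tag, which is the comparison aimed at IGF2BP3, is the difference between the auxin effects in tagged and parental cells. None of the 10 genes passed it in total reads, labelled reads or labelled share, stressed or unstressed. In total reads 0.0% of all genes passed in stressed and 0.0179% in unstressed cells, and in labelled reads and labelled share 0% did in both. In stressed cells it was 0.11 (95% interval -0.21 to 0.44) for P4HB, 0.01 (-0.32 to 0.33) for PDIA4, -0.16 (-0.50 to 0.18) for CRELD2 and 0.02 (-0.34 to 0.38) for ERP44. DESeq2 called 0 genes of the 10 as well, and at an unadjusted p under 0.05 there were 1 in stressed and 2 in unstressed cells in total reads, where 21.7% and 5.93% of all genes passed that threshold. The widest were those of PDIA5 (0.65, -0.12 to 1.43), PDIA6 (0.65, -0.02 to 1.32) and TXNDC5 (0.82, 0.12 to 1.52), with edgeR adjusted p of 0.32, 0.26 and 0.20. Like PDIA5 and PDIA6, TXNDC5 was lower in the smallest library, at 31.8 CPM, than in the 3 others of its group, at 126 to 179 CPM. These 3 effects in stressed cells thus rest in part on that library. Without it 0 of the 10 genes passed in total reads in stressed cells, and 0 of the 11258 genes then tested. In unstressed cells 0 of the 10 and 66 of all genes then passed (0.586%, with 0.133% higher and 0.453% lower). In labelled reads 0 of the 10 then passed in either, where 3 of 9177 genes did in stressed and 0 in unstressed cells.

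In unstressed cells the tag-dependent auxin effect of ERO1B was 1.13 ± 0.41 (edgeR adjusted p = 0.60) and that of PDIA3 was -0.45 ± 0.18 (edgeR adjusted p = 0.68). ERO1B measured 6.19, 5.63, 2.58 and 4.67 CPM in auxin-treated and 3.00, 3.59, 3.23 and 2.62 CPM in vehicle-treated tagged cells, and 3.15, 3.05, 2.53 and 3.87 CPM in auxin-treated and 5.08, 3.27, 5.43 and 4.13 CPM in vehicle-treated parental cells. The values of each pair overlap. The tag-dependent effect on labelled reads in stressed cells was 0.43 ± 0.22 for PDIA4 and 0.48 ± 0.23 for PDIA6, with edgeR adjusted p of 0.43 and 0.42, and without the smallest library they were 0.34 and 0.31. Labelled PDIA4 was 590 ± 54.3 labelled CPM with auxin and 419 ± 50.6 with vehicle in stressed tagged cells, and 493 ± 131 with auxin and 491 ± 54.7 with vehicle in stressed parental cells (SD, n = 4 each).

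Genes around the 10 were followed in vehicle-treated parental cells, stressed against unstressed, where 7.65% of all genes tested rose and 5.26% fell in total reads, and 10.1% rose and 7.08% fell in labelled reads. Of 17 other ER proteins with a thioredoxin fold, 12 were tested in total reads, of which 5 rose and 0 fell, and 10 in labelled reads, of which 5 rose and 0 fell. TXNDC11 rose by a log2 fold change of 1.94 ± 0.25 in labelled and 1.32 ± 0.26 in total reads, TXNDC15 by 1.75 ± 0.27 and 0.62 ± 0.10, and the reductase DNAJC10 by 1.64 ± 0.22 and 0.69 ± 0.10 (edgeR adjusted p at most 0.00076 for each). The median log2 fold change of the list was 0.39 in total and 1.16 in labelled reads, against -0.01 and -0.03 for all genes tested.

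Of 12 other ER oxidases, peroxidases and reductases, 11 were tested, and in total reads 3 rose and 1 fell. SELENOK and SELENOS, selenoproteins of ER-associated degradation, rose by log2 fold changes of 2.45 ± 0.28 and 2.15 ± 0.29 in labelled reads, and the peroxidase GPX8 by 1.04 ± 0.23 (edgeR adjusted p at most 0.00050). VKORC1, the vitamin K reductase, fell by 0.42 ± 0.11 in total reads (edgeR adjusted p = 0.015). The median of the list was 0.11 in total and 0.19 in labelled reads.

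Of 14 partners and clients, 12 were tested in total reads and 9 in labelled reads, and 5 rose and 0 fell in each. In labelled reads these were CRELD1 (2.99 ± 0.41), a relative of CRELD2, the lectin chaperones CALR (2.72 ± 0.26) and CANX (1.19 ± 0.13), and MCFD2 (2.06 ± 0.17) with LMAN1 (1.76 ± 0.22), the cargo receptor for coagulation factors. The collagen hydroxylase subunit P4HA1, the partner of P4HB, was tested in total reads and rose by 0.88 ± 0.22 (edgeR adjusted p = 0.0087). The median of the list was 0.63 in total and 1.19 in labelled reads. Of 7 regulators, 6 were tested, and 4 rose in total reads and 3 in labelled reads. DDIT3, which encodes CHOP, rose by 5.05 ± 0.18 in labelled reads, XBP1 by 2.67 ± 0.16 and ATF6 by 0.97 ± 0.21 (edgeR adjusted p at most 0.00041), and ATF4 rose by 1.00 ± 0.17 in total reads (edgeR adjusted p = 0.00012). The median of the list was 0.69 in total and 0.74 in labelled reads.

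Across the 32 libraries, which fall into stressed and unstressed ones, the genes whose log2 CPM went most closely with a member are given as a description. For CRELD2 they were DDIT3, HSPA5 and CDC6 (Pearson r = 0.984, 0.983 and 0.980), and for ERO1B CHAC1, XBP1 and SEL1L (0.966, 0.966 and 0.959). For PDIA4 they were ERRFI1, SLC39A14 and DNAJC3 (0.974, 0.971 and 0.964), and for ERP44 CEBPG, ERRFI1 and DNAJC3 (0.957, 0.953 and 0.952). ERO1A had no gene as close: AGK, TSEN15 and TARS1 reached 0.865, 0.840 and 0.833, and 0.806, 0.793 and 0.766 over the 31 libraries without the smallest.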

How the data were processed

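SLAM-seq of 3′ ends was analysed in 32 libraries, 4 in each of 8 groups that were read from the labels. The deposited values are whole-number counts per transcript, which per the file headers have the layout of Slamdunk tables: reads, reads with T-to-C conversions, covered T positions and conversions. The build is hg38, per the submitters' processing notes; the Slamdunk version, its thresholds, how many conversions make a labelled read, and the annotation release are not given in the sources used here. Of the 95582 transcripts per file, those matched through RefSeq (GRCh38.p14) to 18829 genes were used, each gene by the row with most reads; 15105 genes had reads and distinct counts. Unmatched transcripts held 36.9% to 43.5% of the counts and were left out.

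Total and labelled counts went into edgeR 4.0.16 (R 4.3.3; TMM, filterByExpr, 1 coefficient per group, robust quasi-likelihood F-test, Benjamini-Hochberg adjustment over all genes, threshold 0.05). For the labelled share, labelled and other reads of a library formed a pair of columns with a term per library, so that a change is relative to the typical gene. Alternatives used DESeq2 1.42.0, limma 3.58.1 and other settings. The tests were run on simulated counts for stressed against unstressed vehicle-treated parental cells. Those counts were independent, had the same spread for all genes, and held no variation shared by the genes of a library. They are therefore no check of how the tests handle such variation. Intervals of fold changes are 95% intervals; the limit for a count of 0 is 3 counts. That limit covers less than the full error, since PCR copies of a molecule are counted as separate reads here. The intervals of fold changes cover the spread between wells only. Each gene list was written by name; members and lists were chosen with earlier results of these data known. Genes outside the 10 are named by a rule: from 4 lists, those past the threshold in total or labelled reads in stressed vehicle-treated parental cells, at most 6 a list, and the 3 most alike genes per member. Replicate numbers were not used to pair libraries, since the labels do not say that they do. Deviations from group means correlated between -0.42 and 0.44 for libraries of the same number. Libraries of different numbers were not compared, so this does not show whether the numbers pair them. Each of the 48 replicate pairs differed by more than counting error (chi-square over its degrees of freedom 2.10 to 70.0), so no library was counted as a repeat. The counted regions of the 10 genes are 146 to 3433 bases long. PDIA4 shares its counts with 1 unnamed transcript.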

Additional observations from a re-analysis of the deposited data

Results flagged for a closer look

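In 19 of the 240 groups of 4 libraries (10 genes, 8 groups, 3 measures) 1 library stood far from the other 3 by Dixon's criterion, where chance gives about 1 in 20. In CPM, CRELD2 was at 256.9 in replicate 3 of stressed vehicle-treated tagged cells (others 339 to 346). ERP44 was at 64.3 in replicate 2 of unstressed vehicle-treated tagged cells (others 42.5 to 44.3), and PDIA5 at 15.2 in replicate 4 of the same cells (others 25.2 to 26.8). ERO1A was at 69.8 in replicate 2 of stressed vehicle-treated parental cells (others 45.4 to 49.5) and at 38.2 in replicate 4 of unstressed auxin-treated parental cells (others 60.3 to 62.7).

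In labelled CPM, ERO1A was at 17.1 in that replicate 4 of unstressed auxin-treated parental cells (others 58.9 to 66.6) and at 66.8 in replicate 3 of unstressed auxin-treated tagged cells (others 53.9 to 55.8). PDIA3 was at 75.2 in replicate 1 of stressed vehicle-treated parental cells (others 105 to 111), at 40.4 in replicate 1 of unstressed auxin-treated parental cells (others 26.7 to 27.8) and at 129.7 in replicate 4 of stressed auxin-treated tagged cells (others 97.3 to 99.6). PDIA4 was at 672 in replicate 3 of stressed auxin-treated tagged cells (others 561 to 566). PDIA6 was at 239 in replicate 1 of unstressed auxin-treated parental cells (others 158 to 171), and TXNDC5 at 73.3 in replicate 2 of unstressed auxin-treated tagged cells (others 66.3 to 66.8).

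In labelled share, the smallest library, replicate 1 of parental cells with tunicamycin and auxin, had 8.74% for PDIA4 (others 17.8% to 19.4%) and 0% for PDIA5 (others 31.1% to 32.2%). P4HB was at 5.82% in replicate 3 of unstressed auxin-treated tagged cells (others 4.47% to 4.59%), and PDIA3 at 14.4% in replicate 4 of stressed auxin-treated tagged cells (others 8.99% to 9.64%). PDIA6 was at 21.97% in replicate 3 of stressed vehicle-treated tagged cells (others 20.8% to 20.8%) and at 6.68% in replicate 1 of unstressed vehicle-treated tagged cells (others 6.93% to 6.97%).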

How the results depend on the processing

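No value that passed in the main fit or in an alternative had the opposite sign in the other. Changes of sign in values that passed in neither were not counted. Of the 10 genes, the number called for stress in total reads stayed within 1.5 times under every alternative, and lay between 8 and 10 in vehicle-treated parental cells and between 6 and 8 in the other 3 comparisons when 1 library at a time was left out; in labelled reads it was 8 or 9. The replicate block gave 9 in vehicle-treated parental cells and 6 in the other 3 in total reads and changed no count of the 10 genes elsewhere by over 1.5 times; the labels do not say that a number pairs libraries. Counts outside the stress comparisons moved more. In total reads, auxin in unstressed parental cells (2) gave 0 with no low-count filter, 9 with the main axis of within-group variation (43.4% of it) as a covariate and the smallest library left out, and 0 to 9 leaving out 1 library at a time (9 without the smallest). Auxin in unstressed tagged cells (0) gave 3 with the compared groups only, 5 with the axis and 0 to 3 leaving out 1 library (3 without the smallest). Auxin in stressed tagged cells (0) gave 2 with the compared groups only and 4 with the axis. The line comparisons (0) gave 1 with the axis in unstressed cells with vehicle, 1 in unstressed cells with auxin and 3 in stressed cells with vehicle, where the compared groups only gave 2. The tag-dependent auxin effect in stressed cells (0) gave 3 with the axis, and stress by line with vehicle (0) gave 3. Stress by auxin in parental cells (0) gave 1 by DESeq2, 4 with the axis and 0 to 3 leaving out 1 library (3 without replicate 4 of stressed auxin-treated parental cells, 1 without replicate 3 of unstressed vehicle-treated parental cells). In labelled reads, auxin in unstressed tagged cells (0) gave 1 with the axis, and auxin in stressed tagged cells (0) gave 1 with the compared groups only, 1 with the axis and 0 to 1 leaving out 1 library (1 without the smallest). The cause of these moves was not tested. Leaving out libraries was run by limma for the labelled share. P4HB and PDIA3 lost their stress calls in auxin-treated parental cells with the compared groups only. ERO1B rests on few reads, 8 to 23 in an unstressed library.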
